A study of Mus musculus with 12 samples.

Results

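Ctnnb1, which encodes β-catenin, and 9 genes whose products bind it or mark it for degradation were followed in 12 RNA-seq libraries of mouse pre-B cells that BCR-ABL1 had transformed, which serve as a model of B-ALL (B cell acute lymphoblastic leukemia). The 10 genes were taken by symbol: Ctnnb1, 8 core genes of its destruction complex (Apc, Axin1, Amer1, Csnk1a1, Gsk3a, Gsk3b, Btrc and Fbxw11) and Ctnnbip1, an inhibitor of β-catenin. All 10 were found among the 12151 genes of the table. The rule itself uses no measured value. All cells carried the genotype BCR-ABL1 Ctnnb1Ex3fl/+, in which 1 Ctnnb1 copy has its exon 3 between loxP sites, and were grown from bone marrow of mice aged 6 to 12 weeks. Cells edited with nontargeting guides (sgNTC, called WT) or with guides against Ikzf1 and Ikzf3 (called KO) were then transduced with ERT2, the tamoxifen-binding domain alone, or with Cre-ERT2, a Cre recombinase that 4-hydroxytamoxifen (4-OHT) activates. This gave 4 groups of 3 libraries, that is ERT2 WT and ERT2 KO as controls and Cre-ERT2 WT and Cre-ERT2 KO with stabilized β-catenin, and the harvest time given is 1 day after 4-OHT, in a protocol text that describes chromatin work.

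In cells without a Wnt signal, a complex built on the scaffolds Axin1, Apc and Amer1 holds β-catenin while casein kinase 1α (Csnk1a1) and the GSK3 kinases (Gsk3a and Gsk3b) phosphorylate its N terminus. The F-box proteins Btrc and Fbxw11 recognize the phosphorylated stretch and bring in a ubiquitin ligase, and the proteasome destroys the protein. Wnt ligands stop this cycle, and β-catenin then enters the nucleus and works with TCF/LEF factors, an interaction that Ctnnbip1 blocks. The level of β-catenin protein is therefore set mainly by its destruction, and the values here are of mRNA.

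Exon 3 of Ctnnb1 is printed because it is the exon that Cre is meant to remove, in Cre-ERT2 cells, from the Ctnnb1 copy with loxP sites. It lies at chr9:120950522-120950749 on the plus strand (GRCm38, GENCODE annotation), is coding throughout, and holds the end of codon 5 to the beginning of codon 81. The 4 codons in capitals are 33, 37, 41 and 45, a serine, a serine, a threonine and a serine that the casein and GSK3 kinases phosphorylate.
Ctnnb1 exon 3: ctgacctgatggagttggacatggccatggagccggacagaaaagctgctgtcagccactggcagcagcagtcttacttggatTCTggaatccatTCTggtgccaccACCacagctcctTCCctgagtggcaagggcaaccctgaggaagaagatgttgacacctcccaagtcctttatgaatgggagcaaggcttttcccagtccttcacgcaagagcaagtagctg
The exon has 228 bases, a multiple of 3, so the reading frame continues after it is cut out. It makes up 6.29% of the principal transcript of 3623 bases. The table gives 1 value per gene, so transcripts with and without exon 3 cannot be told apart.

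**Figure D1:**
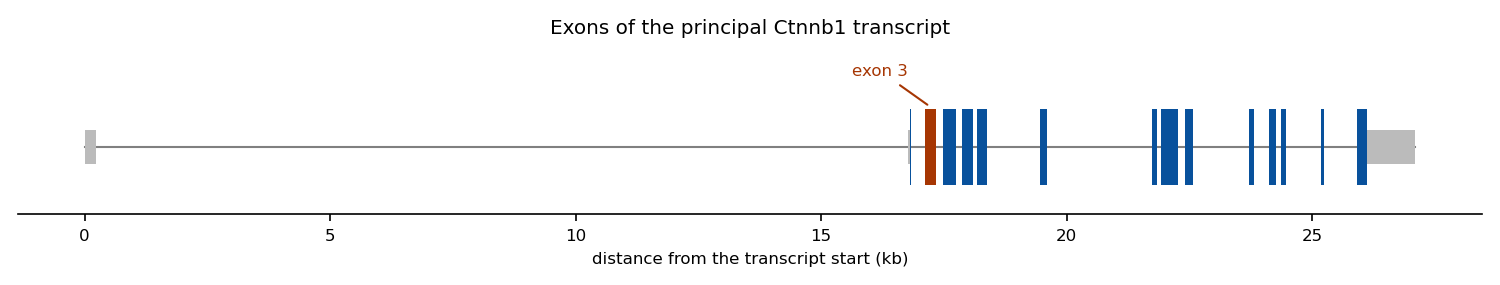
The 15 exons of the principal Ctnnb1 transcript, drawn to scale by distance from the transcript start in kb (grey, untranslated; blue, coding; red, exon 3). Exon 3 is the floxed exon of 228 bases and lies near the start of the coding part.

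Values are the authors' normalized log2 values, so a difference of 0.10 is about 7% on the linear scale, and levels of different genes are not compared because the values are not per length. Read depth is unknown, and the precision of a value rests on its 3 replicates. The median standard deviation within a group lay between 0.028 and 0.035. Differences were tested with limma over all 12151 genes and called at a Benjamini-Hochberg adjusted p under 0.05, and every adjusted p below is from this fit. A 2-sided exact permutation test of 3 against 3 libraries cannot go below 0.1. In the ERT2 libraries labelled KO, Ikzf1 rose by 1.01 and Ikzf3 fell by 0.65 against WT (adjusted p = 1.93e-13 and 5.23e-08). The paper reports western blots of its clonal lines that showed the loss of the Ikaros proteins. These mRNA values do not measure protein and so do not check the label, and KO stands for the label throughout. All 15 listed pre-B cell markers were in the table, and their summed log2 level was 17.4 in each WT library and 16.8 to 16.9 in each KO library. Of markers of other cells, 2 of 10 T cell genes, 3 of 12 myeloid genes, 0 of 9 erythroid genes and 1 of 9 stromal or epithelial genes were in the table. Within the pre-B list Rag1 and Rag2 went the other way, with means of 11.47 and 9.58 in ERT2 WT and 11.80 and 9.96 in ERT2 KO libraries. The summed level of the T cell genes Cd5 and Cd2 ran from 10.7 to 10.8 in WT and 9.34 to 9.65 in KO libraries. Of these, Cd5 also differed between ERT2 and Cre-ERT2, with means of 6.67 and 7.18 in WT and 6.80 and 7.81 in KO cells. The summed myeloid level ran from 7.85 to 7.91 in WT and 8.59 to 8.87 in KO libraries, which was Lyz2 (means 7.41 in ERT2 WT and 8.40 in ERT2 KO), since Itgam (4.66 and 4.51) and Fcgr3 (5.50 and 5.14) were lower in KO. Pecam1 ran from 10.7 to 11.1 in WT and 9.74 to 10.1 in KO libraries, with means for ERT2 and Cre-ERT2 of 10.77 and 11.07 in WT and 9.74 and 10.11 in KO cells. The defining T cell and myeloid genes Cd3e and Mpo were on the marker lists but not in the table. The part of these shifts in the results was not tested. The labels do not say whether replicates came from separate single-cell lines, so the p-values measure only the spread between these libraries, and a KO against WT difference cannot be told apart from a difference between the lines used. Likewise, Cre activity and loss of exon 3 cannot be told apart in the Cre-ERT2 groups.

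The first question was whether the genes of the complex change when β-catenin is stabilized, with Cre-ERT2 compared with ERT2 cells of the same background. Changes were small: Ctnnbip1 rose in both backgrounds, and Ctnnb1 and Gsk3b rose in KO cells. In WT cells 1 of the 10 genes was called (Ctnnbip1, higher), beside 11.9% of all genes (5.93% higher and 5.95% lower). In KO cells 3 of 10 were called, all higher (Ctnnb1, Gsk3b and Ctnnbip1), beside 12.6% of all genes (7.27% higher and 5.33% lower). The 2 groups did not overlap for 5 of 10 genes in WT and 5 of 10 in KO cells, against 31.1% and 28.3% of all genes. The median difference over the 10 genes was 0.063 in WT and 0.037 in KO cells, while over all genes it was 2.2e-05 and -0.00041. None of the 10 reached a difference of 0.5, and the share of all genes that did was not counted. The median absolute difference over all genes was 0.036 in WT and 0.037 in KO cells, and over the 10 genes 0.066 and 0.062.

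The second question was whether the complex differs between KO and WT cells. Here 5 of the 10 genes were called in ERT2 and the same 5 in Cre-ERT2 libraries: Ctnnb1, Csnk1a1, Fbxw11 and Amer1 were higher and Apc was lower in KO cells. Much of the transcriptome differed in this contrast. The count therefore has to be read against 59.0% of all genes called in ERT2 libraries (29.8% higher and 29.3% lower). In Cre-ERT2 libraries it stands against 58.9% (30.4% higher and 28.6% lower). Groups did not overlap for 7 of the 10 genes in each, against 65.5% and 63.6% of all genes. The median absolute difference of the 10 genes was 0.118 in ERT2 and 0.126 in Cre-ERT2 libraries, beside 0.105 and 0.106 over all genes.

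**Figure D2:**
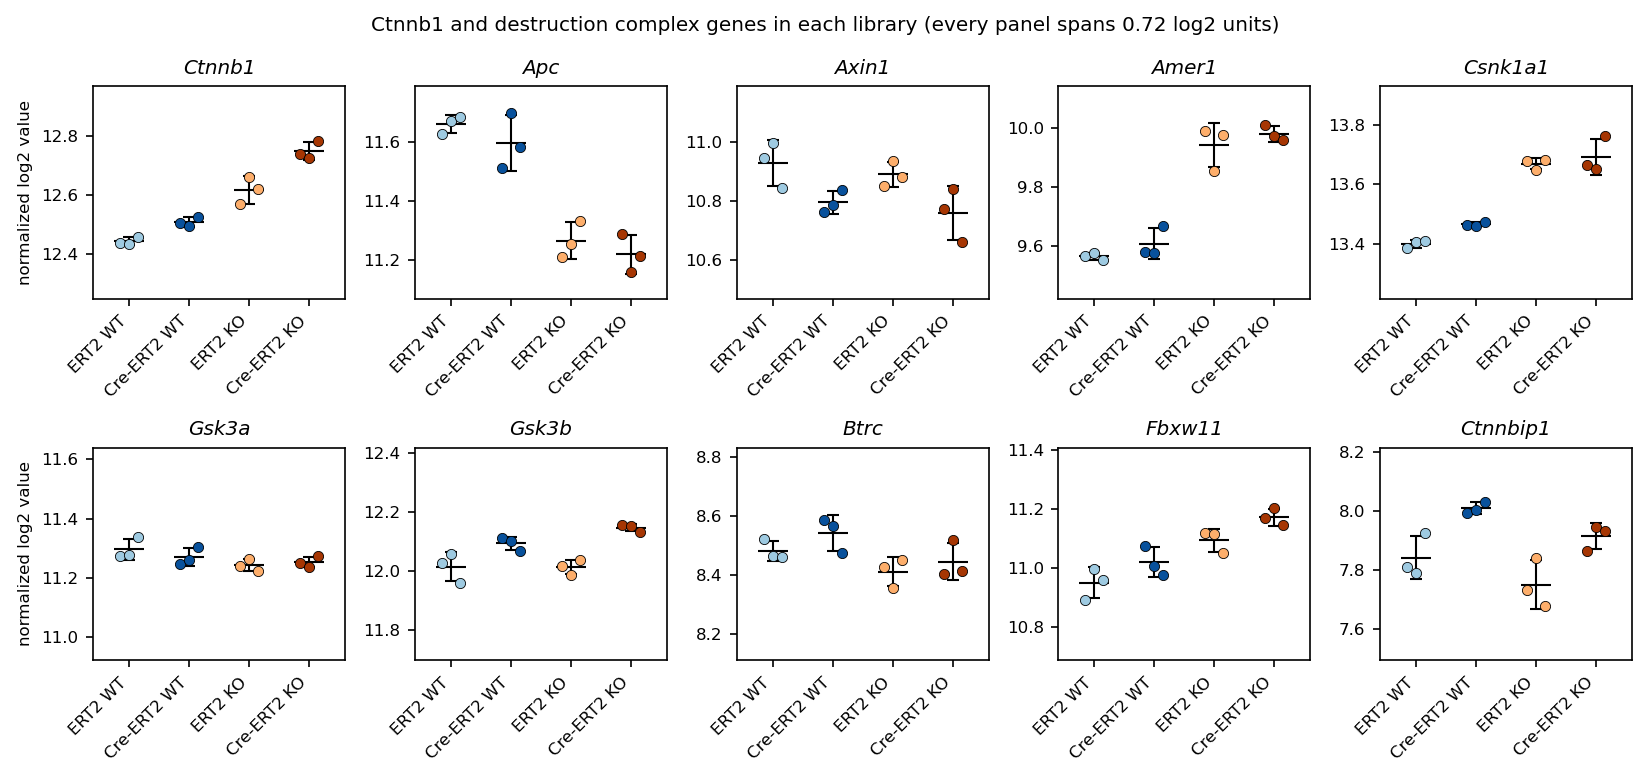
Normalized log2 value of each of the 10 genes in each library (points, 3 per group; bars, mean ± SD, n = 3), with every panel spanning the same 0.72 log2 units so that panels can be compared by eye. Ctnnb1 climbs from ERT2 WT (12.43 to 12.46) to Cre-ERT2 KO (12.73 to 12.78), Apc drops and Amer1 and Csnk1a1 rise from WT to KO, and Gsk3a is nearly flat.

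Ctnnb1 (chr9:120929216-120960507, plus strand, GRCm38) had values of 12.44, 12.43 and 12.46 in ERT2 WT libraries and of 12.51, 12.50 and 12.53 in Cre-ERT2 WT libraries. It had 12.57, 12.66 and 12.62 in ERT2 KO and 12.74, 12.73 and 12.78 in Cre-ERT2 KO libraries. No 2 of the 4 groups overlapped, and every library of a group lay above every library of the group before it in this order. In WT cells the difference between Cre-ERT2 and ERT2 was 0.065 (95% confidence interval 0.010 to 0.120) and was not called (adjusted p = 0.128). In KO cells Ctnnb1 rose by 0.132 (0.078 to 0.187, adjusted p = 0.00407), or 9.61%. The difference between these responses, 0.068 (-0.010 to 0.145), was not called (adjusted p = 0.367), so the response was not shown to differ between backgrounds. KO exceeded WT by 0.173 in ERT2 (adjusted p = 6.70e-05) and by 0.241 in Cre-ERT2 libraries (adjusted p = 3.38e-06), the latter being 18.2%. Among neighbours in the order of levels, ERT2 WT and Cre-ERT2 WT did not differ beyond the threshold, and the other neighbours did (Cre-ERT2 WT to ERT2 KO 0.108, adjusted p = 0.00241).

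Of the scaffolds, Apc differed most between backgrounds. Apc, a large scaffold that holds β-catenin for phosphorylation (chr18:34220924-34322552, plus strand), had 11.63, 11.67 and 11.68 in ERT2 WT and 11.51, 11.70 and 11.58 in Cre-ERT2 WT libraries. In KO cells it had 11.21, 11.25 and 11.33 with ERT2 and 11.29, 11.16 and 11.21 with Cre-ERT2. All 6 WT libraries lay above all 6 KO libraries, and the ERT2 and Cre-ERT2 libraries of each background overlapped. Apc fell by 0.394 in KO against WT in ERT2 (-0.498 to -0.289, adjusted p = 1.42e-05) and by 0.377 in Cre-ERT2 libraries (adjusted p = 2.05e-05), a 1.31-fold lower level in the former. The β-catenin effect on Apc was -0.062 in WT (adjusted p = 0.479) and -0.046 in KO cells (adjusted p = 0.617).

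Axin1, the scaffold around which the complex assembles (chr17:26138688-26195811, plus strand), had 10.94, 10.996 and 10.84 in ERT2 WT and 10.76, 10.79 and 10.84 in Cre-ERT2 WT libraries. In KO cells it had 10.85, 10.94 and 10.88 with ERT2 and 10.77, 10.84 and 10.66 with Cre-ERT2. In both backgrounds each Cre-ERT2 library lay below each ERT2 library, by a margin that is small beside the spread within groups. The difference was -0.132 in WT (adjusted p = 0.101) and -0.131 in KO cells (adjusted p = 0.103), and neither was called. It was called without ERT2 WT replicate 3 in WT (adjusted p = 0.0425) and without Cre-ERT2 KO replicate 2 in KO cells (adjusted p = 0.0450). Over the alternative settings run, the adjusted p reached 0.291 in WT and 0.301 in KO cells. Between backgrounds Axin1 differed by -0.039 in ERT2 and -0.037 in Cre-ERT2 libraries, with overlapping groups and no call.

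Amer1, an X-linked scaffold that ties the complex to the plasma membrane (chrX:95420318-95444872, minus strand), had 9.57, 9.58 and 9.55 in ERT2 WT and 9.58, 9.58 and 9.67 in Cre-ERT2 WT libraries. In KO cells it had 9.99, 9.86 and 9.98 with ERT2 and 10.01, 9.97 and 9.96 with Cre-ERT2. The WT and KO libraries were separate, with 9.67 the highest WT value and 9.86 the lowest KO value. Amer1 rose by 0.375 in KO against WT in ERT2 (0.293 to 0.457, adjusted p = 2.31e-06) and by 0.371 in Cre-ERT2 libraries (adjusted p = 2.43e-06), which are 29.7% and 29.4%. Its rise was close in size to the fall of Apc, and 88.6% of all genes in ERT2 libraries differed by less than Apc and 87.8% by less than Amer1. The β-catenin effect on Amer1 was 0.043 in WT and 0.039 in KO cells, with overlapping groups and no call.

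The GSK3 kinases are near-identical in their catalytic part, and both act on β-catenin. Gsk3a (chr7:25228258-25237851, minus strand) had 11.27, 11.28 and 11.34 in ERT2 WT, 11.25, 11.26 and 11.30 in Cre-ERT2 WT, 11.24, 11.26 and 11.22 in ERT2 KO and 11.25, 11.24 and 11.27 in Cre-ERT2 KO libraries. It was called in none of the comparisons, and its 4 group means spanned 0.053, the narrowest span of the 10 genes. After median centring its KO against WT difference in ERT2 libraries was called (-0.085, adjusted p = 0.0136). The β-catenin effect on Gsk3a was -0.026 in WT (-0.081 to 0.028) and 0.010 in KO cells (-0.044 to 0.064). Gsk3b (chr16:38089001-38246084, plus strand) had 12.03, 12.06 and 11.96 in ERT2 WT and 12.11, 12.10 and 12.07 in Cre-ERT2 WT libraries. In KO cells it had 12.02, 11.99 and 12.04 with ERT2 and 12.16, 12.15 and 12.13 with Cre-ERT2. All 6 Cre-ERT2 libraries lay above all 6 ERT2 libraries. Gsk3b rose by 0.133 in KO cells (0.077 to 0.190, adjusted p = 0.00477). The WT difference of 0.079 (0.023 to 0.136) was not called (adjusted p = 0.0712). That WT difference was called without ERT2 WT replicate 2 (adjusted p = 0.0407), and over the alternative settings run its adjusted p reached 0.218. The difference of the responses was 0.054 (-0.026 to 0.134) and was not called. KO and WT differed by -0.00084 in ERT2 and 0.053 in Cre-ERT2 libraries, and neither was called, although the latter was after quantile normalization (0.092, adjusted p = 0.00712).

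The 250 bases before each GSK3 gene start are printed because Gsk3b was called with Cre-ERT2 in KO cells and Gsk3a in neither background. They come from RefSeq (GRCm38.p6), whose promoter table held 5 of the 10 genes (Ctnnb1, Ctnnbip1, Fbxw11, Gsk3a and Gsk3b). Capitals mark the TCF/LEF core CTTTGA or the string TGGGAA, which contains the Ikaros core, on either strand, and the matches do not overlap. The paper gives the Ikaros core as the shorter GGGAA, which was not counted here. Its reverse complement, ttccc, also occurs in lower case in both windows.
Gsk3a, chr7:25237852-25238101, minus strand: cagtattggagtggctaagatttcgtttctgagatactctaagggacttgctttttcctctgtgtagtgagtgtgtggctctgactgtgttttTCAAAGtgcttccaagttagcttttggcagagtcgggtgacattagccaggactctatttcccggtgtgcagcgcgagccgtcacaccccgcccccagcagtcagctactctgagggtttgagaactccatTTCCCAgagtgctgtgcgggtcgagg
Gsk3b, chr16:38088751-38089000, plus strand: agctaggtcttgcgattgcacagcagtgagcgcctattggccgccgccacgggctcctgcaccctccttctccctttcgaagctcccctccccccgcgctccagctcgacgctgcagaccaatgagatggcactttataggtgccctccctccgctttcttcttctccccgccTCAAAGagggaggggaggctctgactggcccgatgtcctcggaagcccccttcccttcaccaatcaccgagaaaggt
Both hold 1 TCF/LEF core in reverse orientation, 157 bases before the start in Gsk3a and 77 bases before it in Gsk3b. Gsk3a also holds 1 TGGGAA in reverse orientation, 26 bases before the start. The same letters occur in 13.8% (TCF/LEF core) and 21.6% (TGGGAA) of the 32851 promoters of this length in the table. The windows of Ctnnb1, Ctnnbip1 and Fbxw11 held neither of these searched strings. These matches describe letters and not bound sites, and their bearing on either gene was not tested.

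Csnk1a1, casein kinase 1α, phosphorylates β-catenin first and so primes it for the GSK3 kinases. Its values were 13.38, 13.40 and 13.41 in ERT2 WT and 13.46, 13.46 and 13.47 in Cre-ERT2 WT libraries. In KO cells they were 13.68, 13.65 and 13.68 with ERT2 and 13.66, 13.65 and 13.76 with Cre-ERT2. All 6 KO libraries lay above all 6 WT libraries. Csnk1a1 rose by 0.272 in KO against WT in ERT2 (0.214 to 0.329, adjusted p = 1.79e-06), or 20.7%, and by 0.227 in Cre-ERT2 libraries (adjusted p = 9.00e-06), or 17.1%. The β-catenin effect was 0.066 in WT, where the groups were apart but not called (adjusted p = 0.138), and 0.022 in KO cells, where they overlapped. With only the WT groups in the fit the WT difference was called (adjusted p = 0.0399), and over the alternative settings run its adjusted p reached 0.312.

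Of the F-box proteins, which recognize phosphorylated β-catenin, Fbxw11 differed between backgrounds and Btrc did not pass the test. Fbxw11 (chr11:32642724-32746816, plus strand) had 10.89, 10.998 and 10.96 in ERT2 WT and 11.08, 11.01 and 10.98 in Cre-ERT2 WT libraries. It had 11.12, 11.12 and 11.05 in ERT2 KO and 11.17, 11.20 and 11.15 in Cre-ERT2 KO libraries. KO libraries lay above WT libraries of the same vector, by 0.144 in ERT2 (0.070 to 0.218, adjusted p = 0.00282) and 0.153 in Cre-ERT2 libraries (adjusted p = 0.00184). Its β-catenin effect was 0.069 in WT and 0.078 in KO cells, not called in either. Btrc (chr19:45363734-45530013, plus strand) had 8.52, 8.46 and 8.46 in ERT2 WT, 8.59, 8.57 and 8.47 in Cre-ERT2 WT, 8.43, 8.36 and 8.45 in ERT2 KO and 8.40, 8.52 and 8.42 in Cre-ERT2 KO libraries. KO against WT was -0.072 (adjusted p = 0.154) in ERT2 and -0.098 (adjusted p = 0.0577) in Cre-ERT2 libraries. Both Btrc differences were called after median centring of the libraries (adjusted p = 0.0372 and 0.0116) and after quantile normalization (0.0403 and 0.0185). The Cre-ERT2 difference was also called without Cre-ERT2 WT replicate 3 (adjusted p = 0.0202) or Cre-ERT2 KO replicate 2 (0.0167).

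Ctnnbip1, an inhibitor that keeps β-catenin from TCF/LEF factors and takes no part in its destruction (chr4:149518236-149566437, plus strand), had the largest β-catenin effect of the 10 genes in both backgrounds. Its values were 7.81, 7.79 and 7.92 in ERT2 WT and 7.99, 8.002 and 8.03 in Cre-ERT2 WT libraries. In KO cells they were 7.73, 7.84 and 7.68 with ERT2 and 7.86, 7.95 and 7.93 with Cre-ERT2. Within each background every Cre-ERT2 library lay above every ERT2 library. Ctnnbip1 rose by 0.167 in WT (0.067 to 0.266, adjusted p = 0.0327) and by 0.163 in KO cells (0.064 to 0.262, adjusted p = 0.0351), which are 12.2% and 12.0%. The WT call was lost without ERT2 WT replicate 1 (adjusted p = 0.114) or 2 (0.118), or without Cre-ERT2 WT replicate 1 (0.0676), 2 (0.0780) or 3 (0.104). The KO call was lost without ERT2 KO replicate 1 (adjusted p = 0.102) or 3 (0.135), or without Cre-ERT2 KO replicate 2 (0.108) or 3 (0.0927). KO against WT was -0.091 in ERT2 and -0.095 in Cre-ERT2 libraries, and neither was called, although both were after median centring (adjusted p = 0.0334 and 0.0277).

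**Figure D3:**
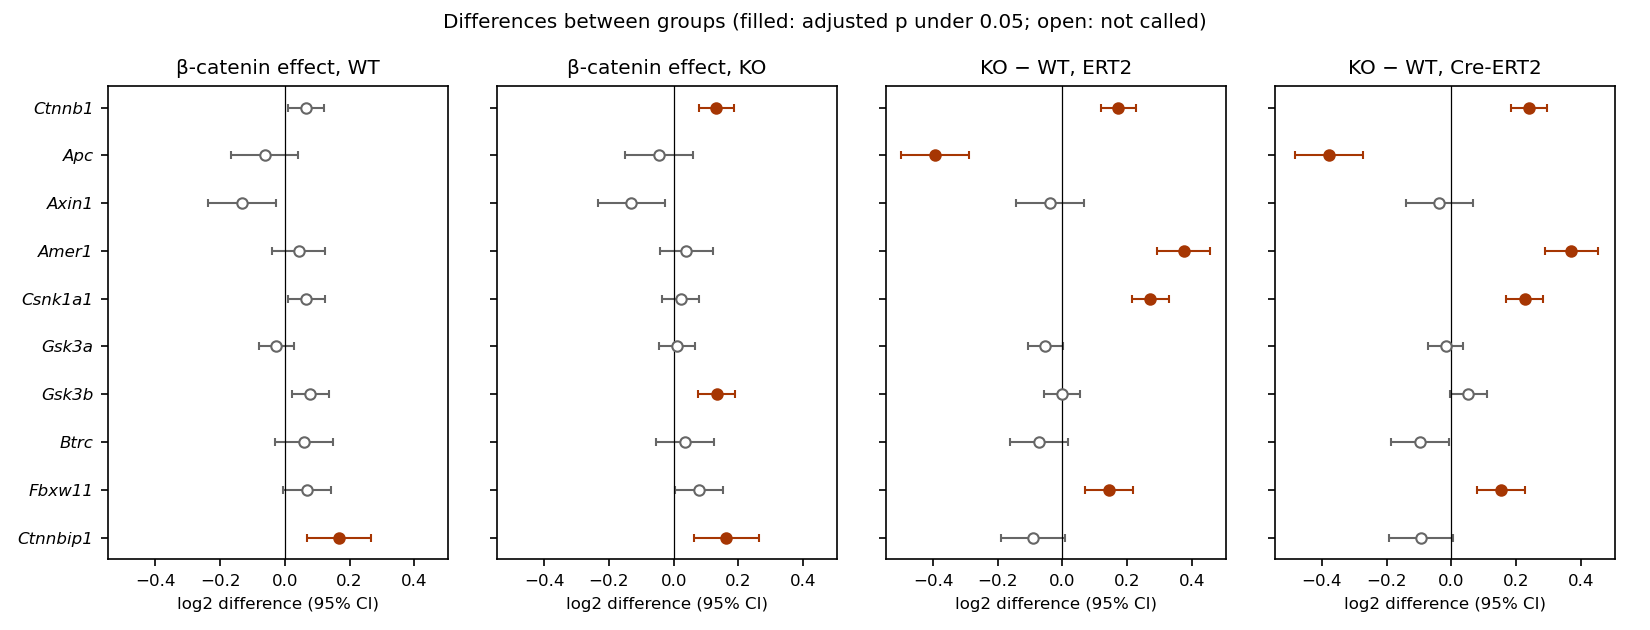
Log2 difference of each of the 10 genes in the 4 comparisons (points, with 95% confidence intervals from limma; filled red, adjusted p under 0.05; open grey, not called). The β-catenin effects all lie within 0.17 of 0, while Apc (-0.394) and Amer1 (0.375) stand out on either side of 0 in KO against WT cells.

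Because the same 2 β-catenin effects were estimated from separate libraries, their mean over WT and KO cells was also tested, a contrast added after the values had been seen. It called 5 of the 10 genes, 4 higher and 1 lower, beside 19.6% of all genes (10.1% higher and 9.51% lower). Ctnnbip1 rose by 0.165 (adjusted p = 0.00322), Gsk3b by 0.106 (adjusted p = 0.00138), Ctnnb1 by 0.099 (adjusted p = 0.00185) and Fbxw11 by 0.074 (adjusted p = 0.0498). Axin1 fell by 0.132 (adjusted p = 0.0160). An exact permutation of the vector labels within each background gave p = 0.005, the smallest it can give, for Ctnnbip1, Gsk3b, Ctnnb1 and Axin1. Their groups were apart in the same direction in both backgrounds, which alone fixes this p, so it only restates that separation. The same permutation gave p = 0.01 for Fbxw11. These permutation p-values are unadjusted, and the share of all genes reaching them was not computed. The Fbxw11 call sits at the threshold and was lost without any of 10 libraries, all but ERT2 WT replicate 2 and Cre-ERT2 WT replicate 3 (adjusted p up to 0.115). The other 5 genes were not called (Csnk1a1 0.044, adjusted p = 0.127).

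The third question was whether editing of Ikzf1 and Ikzf3 alters the response of the complex to β-catenin. In the limma test of that difference 0 of the 10 genes were called, beside 4.53% of all genes, and 0 of the 10 had an unadjusted p under 0.05, as 17.3% of all genes did. The differences ran from -0.044 for Csnk1a1 to 0.068 for Ctnnb1. The confidence intervals of these differences were wide beside the effects themselves, from -0.010 to 0.145 for Ctnnb1 and from -0.146 to 0.148 for Axin1.

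The rest of the degradation machinery was described from a list of 25 further genes, of which 22 were in the table. In WT cells 3 rose with β-catenin and 2 fell, 5 of 22 beside 11.9% of all genes, and 4 of 22 were called in KO cells beside 12.6%. Axin2, the Axin1 paralog that TCF/LEF factors induce as feedback, rose by 0.286 (adjusted p = 2.08e-07), and the casein kinases Csnk1d and Csnk1g2 by 0.139 and 0.070. Csnk1e, another casein kinase, fell by 0.214 (adjusted p = 0.00450) and Frat2, a GSK3-binding protein, by 0.130, a call lost without ERT2 WT replicate 1 (adjusted p = 0.0703) or 3 (0.0832) or Cre-ERT2 WT replicate 1 (0.0902) or 3 (0.0545). In KO cells 3 rose, Axin2 by 0.140 (adjusted p = 8.92e-05), Csnk1d by 0.135 and the tankyrase Tnks, which marks Axin for destruction, by 0.105. The phosphatase subunit Ppp2r5a fell by 0.149. The Csnk1g2 call was lost without ERT2 WT replicate 1 or 3 or any Cre-ERT2 WT library (adjusted p up to 0.108), and the Tnks call without ERT2 KO replicate 1 or 2 or Cre-ERT2 KO replicate 1 or 2 (up to 0.0877). Genes of this and the next lists that differed by less than 0.5, other than Axin2, were chosen for naming after their values were seen. Within each background Axin2 rose with Cre-ERT2, where the lower Axin1 values were not called. Axin2 had values of 5.09 ± 0.005 in ERT2 WT and 5.37 ± 0.024 in Cre-ERT2 WT libraries (SD, n = 3). It had 5.01 ± 0.0003 in ERT2 KO and 5.15 ± 0.015 in Cre-ERT2 KO libraries. Between backgrounds 3 rose and 7 fell in ERT2, and 3 rose and 8 fell in Cre-ERT2 libraries, so 10 and 11 of 22 were called, beside 59.0% and 58.9% of all genes. Tnks2 fell by 0.316 and 0.329, and Rnf146, the ligase that acts on tankyrase-modified Axin, by 0.228 and 0.215. Macf1, a cytoskeletal linker that binds Axin, rose by 0.394 and 0.337.

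The ligase list covered parts of the SCF complex into which Btrc and Fbxw11 fit, and the SIAH ligases, which degrade β-catenin without its phosphorylation. Of 12 genes found among 13, 1 rose with β-catenin in WT cells (Siah1a, 0.114, adjusted p = 0.0291) and 1 in KO cells (Skp1a, 0.113, adjusted p = 0.00992), beside 11.9% and 12.6% of all genes. The Siah1a call was lost without ERT2 WT replicate 1 or 2 or any Cre-ERT2 WT library (adjusted p up to 0.107). Between backgrounds 7 were higher and 1 lower in KO cells in ERT2, and 6 higher and 0 lower in Cre-ERT2 libraries, so 8 and 6 of 12 were called, beside 59.0% and 58.9% of all genes. Siah2 rose by 0.491 and 0.519 (adjusted p = 4.16e-08 and 2.30e-08), Cul1, the SCF scaffold, by 0.159 and 0.160, and Skp1a, its adaptor, by 0.108 and 0.201. The median KO against WT difference of the list was 0.086 in ERT2 and 0.070 in Cre-ERT2 libraries, and that over all genes was 0.0016 in each.

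Upstream of the complex, of 13 Wnt receptor and relay genes found among 22, 7 were higher and 2 lower in KO cells in each vector group, and these 9 of 13 stand beside 59.0% and 58.9% of all genes. Differences of at least 0.5 were found for 3 of the 13. Fzd6, a Frizzled receptor, fell by 3.31 in ERT2 (adjusted p = 1.09e-16) and by 3.41 in Cre-ERT2 libraries. Fzd7, another Frizzled, rose by 1.26 and 1.32, and the coreceptor genes Lrp5 and Lrp6 by 1.39 and 1.36 and by 0.247 and 0.354. Of 16 adherens junction partners 5 were in the table, and no classical cadherin of the list was among them. Between backgrounds 3 of the 5 were called in ERT2 and 4 in Cre-ERT2 libraries, and their median absolute difference was 0.038 in ERT2, beside 0.105 over all genes. Ctnna1, α-catenin, which links β-catenin at junctions to actin, rose by 1.48 and 1.31 in KO cells, and Vcl, vinculin, by 0.98 and 1.19. The other 3 had small differences in ERT2 libraries, 0.0068 for Ctnnal1 and -0.015 for Jup (neither called) and 0.038 for Ctnnd1. The Ctnnd1 difference was called, but was 0.0063 and not called after median centring. In Cre-ERT2 libraries Ctnnd1 was called higher (0.032), and Jup was called lower, with means of 3.27 in WT and 3.22 in KO cells. Group means were low for Ctnnd1 (2.31 to 2.35) and Jup (3.22 to 3.27). Whether compression of low values shrank their differences, and with them the list median, was not tested. Of 7 coactivator genes found among 9, 1 was higher and 2 were lower in KO cells in each vector group (59.0% and 58.9% of all genes were called), and Ep300, an acetyltransferase, fell by 0.269 and 0.225. Crebbp, its paralog, rose by 0.282 with β-catenin in WT cells (adjusted p = 0.00966), and Ep300 and Kdm2a, a histone demethylase, by 0.10 and 0.099 in KO cells. The Ep300 call in KO cells was lost without ERT2 KO replicate 2 or Cre-ERT2 KO replicate 1 or 2 (adjusted p up to 0.139), and that of Kdm2a without ERT2 KO replicate 1 or 2 or Cre-ERT2 KO replicate 1 or 3 (up to 0.171).

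**Figure D4:**
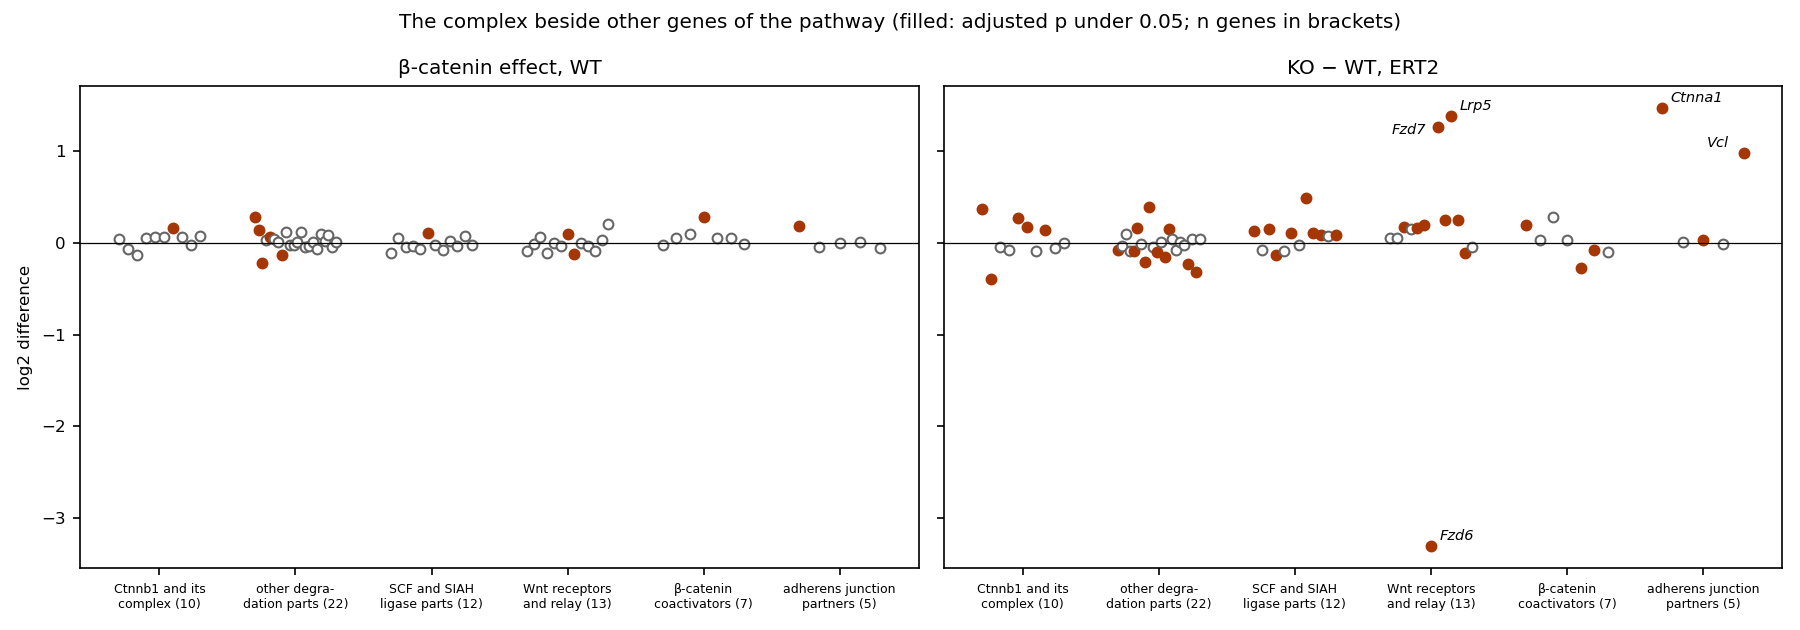
Log2 difference of every measured gene of 6 lists (each point 1 gene; filled red, adjusted p under 0.05; open grey, not called) for the β-catenin effect in WT cells (left) and KO against WT in ERT2 libraries (right), on 1 common axis. The 10 genes of the complex stay within 0.4 of 0 on the right, where Fzd6 lies at -3.31 and Ctnna1, Lrp5, Fzd7 and Vcl at 0.98 to 1.48.

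The pattern of Ctnnb1 over the 12 libraries was compared with that of 7684 genes whose spread was at least 50% of its own. The nearest were Tnfrsf19, Arhgap23, Zdhhc13, Zcchc8 and Fam198a (Pearson r = 0.98 each), and the most opposed were Fam78a, Myo1c, Foxk2, Dpp9 and Slc39a6 (r = -0.98 each). Among the other genes of the complex, r with Ctnnb1 was 0.91 for Csnk1a1, 0.87 for Amer1 and Fbxw11 and -0.88 for Apc. It was 0.53 for Gsk3b, -0.52 for Axin1, -0.51 for Btrc, -0.44 for Gsk3a and -0.010 for Ctnnbip1. All 12 points share the 4-group structure, so these values mostly restate which genes differ between WT and KO cells.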

How the data were processed

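Polyadenylated RNA was sequenced from 12 libraries of 4 groups, prepared from 280 ng of RNA with 10 PCR cycles. According to the study's methods and the submitters' processing notes, reads were processed with Salmon 1.4.0, STAR 2.7.6 and DESeq2 1.30.1 on mm10. The deposited table holds log2 values that the authors normalized between libraries, with no counts. Their transformation and the read depth are not given in the sources used here. Compression of low values would shrink fold changes and spreads. Values were used as deposited. A linear model of 4 group means was fitted with limma 3.58.1 in R 4.3.3 (lmFit, eBayes with trend) to 12151 genes, with Benjamini-Hochberg adjustment over all of them, and was tested on simulated data. The planned test assumed unlogged values; a pseudocount (1 or 64 on unlogged values) therefore entered as an alternative. Other alternatives were median centring, quantile normalization, no lower quartile of genes, eBayes without trend or robust, array weights, a replicate block, fits to the compared groups, a threshold of 0.01 and leaving out each library. The 10 genes and all lists were chosen with earlier results of these data known. Named beyond the 10 were list genes called with a difference of at least 0.5, Axin2, the 5 genes most like and unlike Ctnnb1, and list genes under 0.5 chosen after their values were seen. Motifs were searched in both orientations. Figures used matplotlib 3.10.9.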

Additional observations from a re-analysis of the deposited data

Results flagged for a closer look

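The limma test of the difference between the β-catenin effects (KO minus WT, on the log2 scale) called 550 of 12151 genes, 4.53%. Genes named from the pathway lists, Ikzf1 and Ikzf3 are given here where they were among them, and no explanation was weighed. The cell type markers and the genes most like or unlike Ctnnb1 were not screened for this. Some of these had unlike responses in their means, such as Arhgap23. Its ERT2 and Cre-ERT2 means were 6.77 and 7.03 in WT and 7.62 and 8.39 in KO cells. Axin2 responded less in KO cells, by -0.146 (adjusted p = 0.00284, effects 0.286 in WT and 0.140 in KO). Its group means were low, from 5.01 to 5.37, and its SD in ERT2 KO libraries was 0.0003. The median SD over all genes there was 0.029, and whether compression of low values bears on the Axin2 result was not tested. Frat2 fell in WT and not in KO cells, a difference of 0.203 (adjusted p = 0.0310, effects -0.130 and 0.073). Ctnna1 rose in WT cells, with a difference of -0.163 (adjusted p = 0.0119, effects 0.191 and 0.028). Vcl rose in KO cells, with a difference of 0.211 (adjusted p = 0.0106, effects -0.049 and 0.163). Ikzf1 fell more in KO cells, by -0.105 (adjusted p = 0.0422, effects -0.062 and -0.166). With each of 12 libraries left out in turn, the call was lost in 11 cases for Ikzf1 and in 8 for Frat2, and in 0 for Axin2, Ctnna1 and Vcl. Median centring, quantile normalization and the replicate block also ended the Ikzf1 call.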

How the results depend on the processing

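Calls for the 10 genes of the complex between KO and WT cells (5 in each vector group) were made under every alternative run, but with further genes added by scaling, to 8 genes in ERT2 libraries after median centring and to 8 in Cre-ERT2 libraries after quantile normalization. Median centring moved the median of all KO against WT differences by -0.032 and -0.034, and quantile normalization by under 0.01. In WT cells the β-catenin effect was called for 0 genes of the complex at an adjusted p under 0.01 and for 2 in the fit to the WT groups alone, and for 0 to 2 with 1 library left out. The mean β-catenin effect was called for 3 at an adjusted p under 0.01, and its Fbxw11 call was also lost after median centring, quantile normalization, a pseudocount of 64, eBayes without trend and the replicate block (adjusted p up to 0.0641). The Ctnnbip1 call in KO cells was lost with array weights (adjusted p = 0.0505) and in the fit to the KO groups alone (0.0917). That fit also ended the β-catenin calls of Kdm2a (0.141), Ep300 (0.149) and Tnks (0.112) in KO cells. The Kdm2a call was further lost after median centring, quantile normalization and array weights, and the Ep300 call with the replicate block (0.0699). In WT cells the Csnk1g2 call was lost after both scalings and in the fit to the WT groups alone (up to 0.0628).

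Over all genes, an adjusted p under 0.01 left 787 called in WT cells, 790 in KO cells, 240 for the difference of these effects and 1365 for their mean, and the fit to the KO groups alone left 934. Pairing by library number was not evident, since 2 of 18 same-numbered pairs had a correlation of deviations over 0.1 (range -0.091 to 0.313). Differently numbered pairs ran from -0.355 to 0.356. With 3 libraries per group these correlations cannot settle whether samples were paired. With the replicate block the counts for the complex were 1, 3, 5, 5 and 0 in the 5 comparisons and 4 for the mean, and over all genes 1361, 1374, 7089, 7108, 424 and 2261.

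Directions of the 10 genes reversed only near 0, where they were not called, and among the other named genes KO minus WT of Ctnnd1 in Cre-ERT2 libraries, which was called, became -0.0021 after median centring. After median centring the difference of the β-catenin effects was -0.00031 for Axin1. After quantile normalization it was 0.0015 for Amer1, the β-catenin effect in KO cells was -0.0019 for Csnk1a1, and KO minus WT was 0.051 for Gsk3b in ERT2 and 0.014 for Gsk3a in Cre-ERT2 libraries. With 1 library left out, the difference of the effects ran from -0.041 to 0.050 for Axin1, -0.046 to 0.027 for Amer1, -0.026 to 0.068 for Apc, -0.045 to 0.042 for Ctnnbip1 and -0.014 to 0.038 for Fbxw11. The effect in KO cells ran from -0.0038 to 0.064 for Amer1, -0.0021 to 0.055 for Btrc and -0.013 to 0.043 for Csnk1a1, and the mean effect from -0.016 to 0.0023 for Gsk3a. KO minus WT ran from -0.028 to 0.020 for Gsk3b in ERT2 and from -0.079 to 0.011 for Axin1 and -0.029 to -0.00052 for Gsk3a in Cre-ERT2 libraries. The cause of these changes was not tested. Depth is unknown, so no counting error can be given for any of these values.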
